A study of Mus musculus with 12 samples.

Results

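The insulin receptor signalling genes examined here were Insr, Irs1, Irs2, Pik3r1, Pik3ca, Akt1, Akt2, Foxo1, Foxo3 and Igfbp1. They were chosen by name, as 10 of the 52636 genes in the deposited table, and all 10 passed the filter on low values and were tested. RNA sequencing libraries of polyA RNA were made from hepatocytes of steatotic mouse livers, 3 wild-type (WT) mice and 3 mice with a knockout (KO) of Ptprk, a receptor-type protein tyrosine phosphatase. Viable hepatocytes were parted by lipid content on a Percoll gradient, so that the 6 mice gave 12 libraries, 1 low-fat and 1 high-fat from each, in 4 groups of 3, and mice are numbered here by the replicate number of the labels. The labels used here give no age, sex, strain, diet, feeding state or design of the Ptprk allele, and every group shares the steatotic liver and the cell isolation.

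Insulin binds the receptor tyrosine kinase encoded by Insr, which phosphorylates the adaptor proteins encoded by Irs1 and Irs2. The adaptors recruit phosphoinositide 3-kinase, whose regulatory subunit p85 alpha is encoded by Pik3r1 and whose catalytic subunit p110 alpha is encoded by Pik3ca. The lipid it makes activates the kinases encoded by Akt1 and Akt2, and these phosphorylate the FOXO transcription factors encoded by Foxo1 and Foxo3, which then leave the nucleus. In the liver FOXO1 raises transcription of Igfbp1, the gene of a secreted binding protein for insulin-like growth factors, and of Irs2, so that both transcripts are known to be high in fasting and low after insulin. Phosphorylation, which carries most of the signal, was not measured.

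The sequences before the starts of Igfbp1 and Irs2 are shown because both are textbook targets of FOXO1 and their transcripts are compared below, and that of Irs1 because it holds the same letters. RefSeq windows (GRCm38.p6) of 300 bases, from 250 before to 50 after each annotated start, were found for 9 of the 10 genes, 14 windows in all. They were searched for CAAAACA, the core of the insulin response sequence, and its reverse complement TGTTTTG. The 250 bases before the start, with matches in capitals, lie at chr11:7197537-7197786 on the plus strand for Igfbp1, at chr8:11008930-11009179 on the minus strand for Irs2 and at chr1:82291440-82291689 on the minus strand for Irs1.
Igfbp1: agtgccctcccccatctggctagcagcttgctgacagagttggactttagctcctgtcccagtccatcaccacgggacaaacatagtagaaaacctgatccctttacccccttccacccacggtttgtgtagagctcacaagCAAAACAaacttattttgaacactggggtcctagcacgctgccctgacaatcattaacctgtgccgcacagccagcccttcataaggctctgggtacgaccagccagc
Irs2: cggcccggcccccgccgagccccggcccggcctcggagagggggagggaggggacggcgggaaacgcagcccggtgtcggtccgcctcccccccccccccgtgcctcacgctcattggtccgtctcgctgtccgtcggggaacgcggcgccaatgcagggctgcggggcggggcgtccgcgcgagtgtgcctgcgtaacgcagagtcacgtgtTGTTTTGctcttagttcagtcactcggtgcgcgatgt
Irs1: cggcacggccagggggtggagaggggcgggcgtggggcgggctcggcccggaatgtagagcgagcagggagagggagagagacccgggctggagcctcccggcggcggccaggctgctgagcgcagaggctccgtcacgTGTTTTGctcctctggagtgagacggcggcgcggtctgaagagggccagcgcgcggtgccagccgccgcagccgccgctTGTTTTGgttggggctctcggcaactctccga
The first base of the match lay 108 bases before the RefSeq start of Igfbp1 and 37 before that of Irs2. In GENCODE M21 Irs2 starts further downstream, at 11008458, so the match lies farther from that start. Irs1 held a match 111 bases and another 32 bases before its start. The letters occurred in 3 of the 9 genes, which was 3 of their 14 windows, and in 6.28% of all 32851 RefSeq promoter windows. A second motif, GTAAACA or TGTTTAC, the forkhead consensus, shares no full match with the first. It occurred in 1 of the 9 genes, Akt1, 161 bases before 1 of its annotated starts. This was 1 of the 14 windows, beside 3.65% of all windows. A match of letters is a description and not a binding site.

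Estimated depth was 15.1 to 25 M reads per library, so that 3 reads correspond to 2.40 to 3.98 reads per 20 M (mega), the unit of the deposited values, and the 10 genes lay far above this floor. Ptprk, the targeted gene, was at 2174 to 2883 reads per 20 M in the 6 WT libraries and at 1117 to 1364 in the 6 KO libraries, which did not overlap. The KO level was 0.457 times the WT level in low-fat and 0.502 times in high-fat libraries, so the transcript was lower and not absent in the libraries labelled KO, and values per gene do not show which exons the remaining reads cover. The 10 hepatocyte markers, such as Alb and Apoa1, summed to 624380 to 709489 reads per 20 M in every library. The 9 Kupffer cell markers summed to 470 to 1341 in low-fat and 2109 to 11426 in high-fat libraries, highest in the high-fat libraries of both mice numbered 1. Sums of 9 stellate cell markers were 152 to 720 and 2215 to 3819, and those of 9 sinusoidal endothelial markers 1319 to 3539 and 5684 to 16746, and in 6 of 6 mice each of these 3 sums was higher in the high-fat fraction. None of these markers was at 0 in every library. Summed nuclear-retained RNAs (Malat1, Neat1 and Meg3) varied from 27174 to 153825 and were higher in the high-fat library in 5 of 6 mice. From low-fat to high-fat they went from 61664 to 153825 in WT mouse 1, from 43080 to 152104 in KO mouse 1 and from 123596 to 31685 in KO mouse 2.

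Compared per kilobase of exon over all 12 libraries, Igfbp1 stood far above the rest, at a mean level of 4106 reads per 20 M per kb. Insr followed at 416, Irs2 at 403, Akt2 at 350, Foxo3 at 320, Pik3r1 at 300.0, Akt1 at 288, Foxo1 at 240, Irs1 at 223 and Pik3ca at 138. Akt2, described as the main Akt isoform of insulin action in liver, was thus higher per length than Akt1. The order among Insr, Irs2, Akt2, Foxo3, Pik3r1 and Akt1 was not tested, and the ranges of Irs2 over libraries span those of its neighbours.

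Igfbp1 (chromosome 11, 7197782 to 7202546, plus strand, GRCm38, GENCODE M21) had the widest range over libraries of the 10 genes. In WT mice 1, 2 and 3 it measured 11100, 2170 and 3975 reads per 20 M in low-fat and 12866, 1928 and 3993 in high-fat libraries. In KO mice 1, 2 and 3 it measured 3236, 8328 and 8132 in low-fat and 6101, 5499 and 7819 in high-fat libraries. WT mouse 1 was highest and WT mouse 2 lowest of all, so that WT libraries lay both above and below all KO libraries. Low-fat means were 5748 ± 4720 in WT and 6565 ± 2880 in KO, and high-fat means 6262 ± 5810 and 6473 ± 1200 (SD, n = 3 mice per group). The mean over both libraries of a mouse differed 5.85-fold between the highest mouse and the lowest.

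Irs2 (chromosome 8, 10984681 to 11008458, minus strand) was the second most variable member. In WT mice 1, 2 and 3 it measured 3150, 1804 and 1471 reads per 20 M in low-fat and 4182, 1489 and 1455 in high-fat libraries. In KO mice 1, 2 and 3 it measured 1278, 2897 and 4771 in low-fat and 2224, 1975 and 3893 in high-fat libraries. WT mouse 1 and KO mouse 3 were high in both fractions, and the genotypes overlapped throughout. Mouse means differed 2.96-fold. Exons of 9530052E02Rik on the opposite strand overlap those of Irs2, and since the strand setting of the counting is not given in the sources used here, reads of the overlap cannot be told apart.

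Irs1 (chromosome 1, 82233101 to 82291416, minus strand), the other adaptor gene, had a narrower range than Irs2. In WT mice 1, 2 and 3 it measured 2028, 2290 and 1818 reads per 20 M in low-fat and 2071, 2479 and 1905 in high-fat libraries. In KO mice 1, 2 and 3 it measured 2441, 1437 and 1974 in low-fat and 2787, 1474 and 1768 in high-fat libraries. KO mouse 1 was high and KO mouse 2 low in both fractions, and the WT mice lay between. Foxo3 (chromosome 10, 42181841 to 42276755, minus strand) showed the opposite order, with 1855, 3164 and 2547 in low-fat and 2136, 2884 and 2271 in high-fat libraries of KO mice 1, 2 and 3. In WT mice it measured 2462, 2188 and 2490 in low-fat and 2538, 2078 and 2431 in high-fat libraries. Exons of Gm9747, on the opposite strand, overlap those of Irs1.

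Insr (chromosome 8, 3122061 to 3279617, minus strand), the receptor itself, ranged from 4132 to 6559 reads per 20 M. WT mouse 1 was lowest in both fractions, at 4551 and 4132, and KO mouse 1 was next, at 4955 and 5255. The other 8 libraries lay between 5515 and 6559 with no order by genotype. Foxo1 (chromosome 3, 52268336 to 52353221, plus strand) ranged from 1610 to 2495. WT mouse 2, at 1722 and 1644, and KO mouse 3, at 1677 and 1610, were low in both fractions, and the other 4 mice lay at 2085 or above. Exons of Gm20402 overlap those of Foxo1.

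The subunit genes of phosphoinositide 3-kinase differed in their spread. Pik3r1 (chromosome 13, 101680563 to 101768217, minus strand) measured 4205, 3097 and 2808 reads per 20 M in low-fat and 4293, 2920 and 2799 in high-fat libraries of WT mice 1, 2 and 3. In KO mice 1, 2 and 3 it measured 2891, 2499 and 2803 in low-fat and 3161, 2322 and 2492 in high-fat libraries. WT mouse 1 stood above all others, and the remaining libraries overlapped. Pik3ca (chromosome 3, 32397671 to 32468486, plus strand) stayed between 1096 and 1397 in all 12 libraries, and its lowest low-fat KO library, at 1301, lay above its highest low-fat WT library, at 1258, on the deposited scale. After rescaling between libraries these values overlapped.

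The kinase genes were the steadiest members together with Pik3ca. Akt1 (chromosome 12, 112653821 to 112674884, minus strand) ranged from 1007 to 1346 reads per 20 M. Akt2 (chromosome 7, 27591552 to 27640826, plus strand) ranged from 2255 to 2762, and its mouse means differed by 1.1-fold between the highest and the lowest mouse. Low-fat means of Akt2 were 2490 ± 64.7 in WT and 2628 ± 117 in KO, and high-fat means 2373 ± 176 and 2480 ± 177 (SD, n = 3 mice per group).

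**Figure D1:**
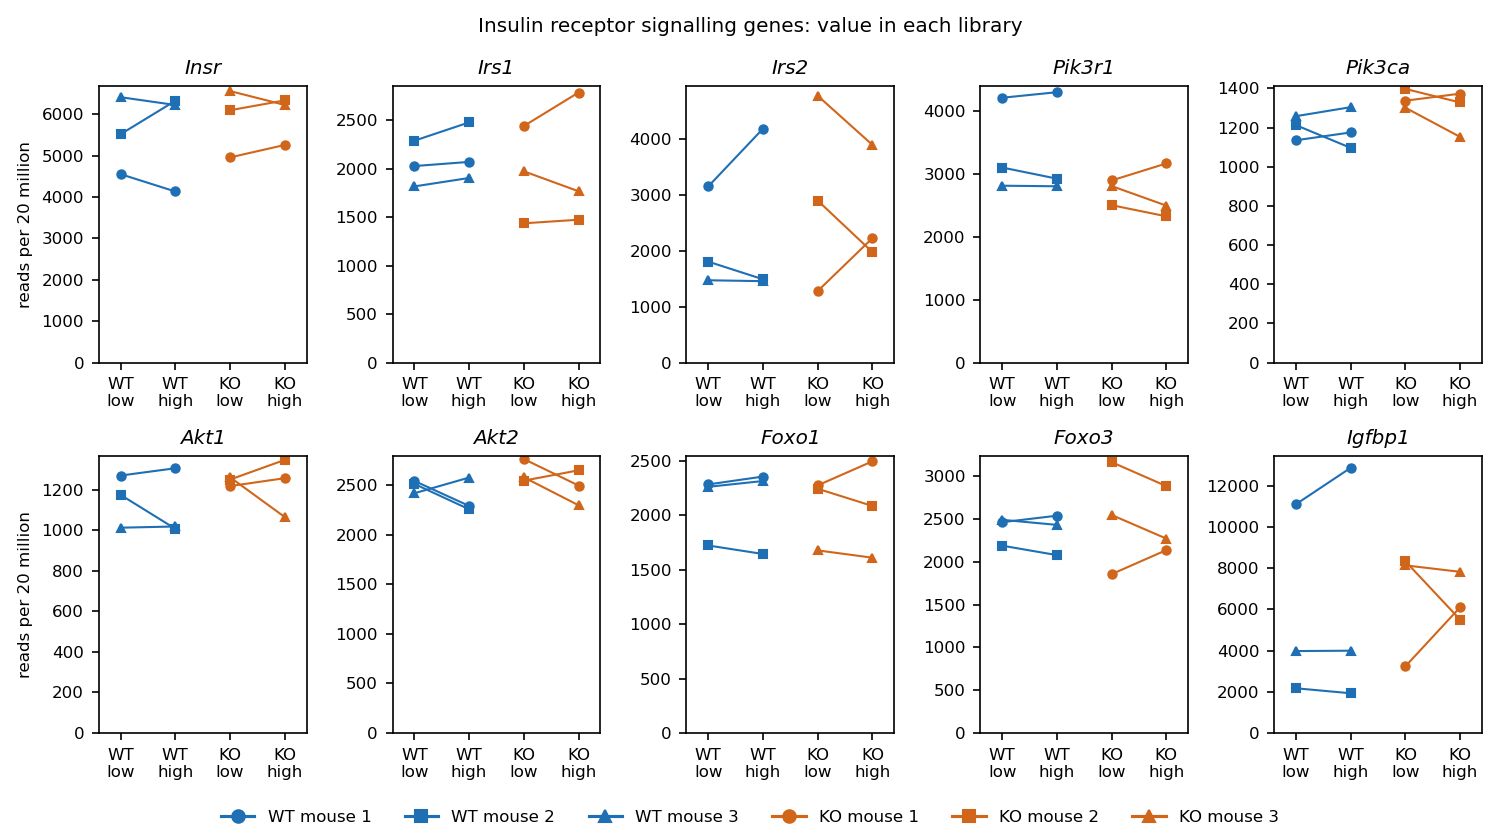
Value of each gene in each library, in reads per 20 M on a linear axis from 0. Lines join both libraries of a mouse, and symbols mark the 6 mice. Igfbp1 and Irs2 spread widely between mice of a genotype, and Pik3ca, Akt1 and Akt2 stay in narrow bands.

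The first comparison asked whether these transcripts differed between mice labelled knockout and wild type for Ptprk. None of the 10 genes was called in either fraction (limma on log2(value + 2), Benjamini-Hochberg adjusted p under 0.05 over 16563 genes, adjusted p = 1.0 for each member). In each fraction 0.00604% of all genes was called, which was 1 gene, Ptprk, at log2 values of -1.13 (adjusted p = 0.00131, low-fat) and -0.99 (adjusted p = 0.00506, high-fat). At an unadjusted limma p under 0.05 there were 0 members in either fraction, beside 286 and 334 genes in all. None of the 10 genes had WT and KO libraries that did not overlap, against 5.43% (low-fat) and 5.17% (high-fat) of all genes. The spread between these libraries includes the difference between mice.

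By direction alone, 7 of the 10 genes were higher and 3 lower in KO in both fractions, and the 3 were Irs1, Pik3r1 and Foxo1. The members had a median log2 fold change of 0.10 (low-fat) and 0.09 (high-fat), beside -0.004 and -0.014 over all genes tested. Both fractions come from the same 6 mice, so the repeat of the signs is no independent evidence. Pik3r1, Pik3ca, Akt1 and Akt2 kept their direction whichever library was left out. In both fractions the sign of Igfbp1 turned without WT mouse 2 (-0.17 and -0.15), that of Irs2 without KO mouse 3 (-0.07 and -0.02), that of Insr without WT mouse 1, that of Irs1 without KO mouse 2, that of Foxo3 without WT mouse 2 or KO mouse 2, and that of Foxo1 without WT mouse 1, WT mouse 3 or KO mouse 3.

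Intervals show how large a difference these 3 against 3 libraries leave possible. Their spread comes from the fit of all 12 libraries, which takes both libraries of a mouse as independent, so they may be too narrow. The KO against WT log2 value for Akt2 was 0.08 with a 95% interval of -0.10 to 0.27 in low-fat libraries, and 0.07 with an interval of -0.12 to 0.26 in high-fat ones. For Pik3ca the same pair of values was 0.17 (-0.02 to 0.36) and 0.11 (-0.08 to 0.31). For Insr it was 0.11 (-0.33 to 0.55) and 0.12 (-0.32 to 0.56). None of these intervals reaches 1, a doubling, and those of the next genes do. For Igfbp1 the low-fat log2 fold change was 0.41 with an interval of -1.10 to 1.91, and the high-fat one was 0.47 with an interval of -1.03 to 1.98. For Irs2 they were 0.37 (-0.77 to 1.5) and 0.31 (-0.82 to 1.44). Exact permutation of the 3 against 3 libraries, two-sided, cannot give a p below 0.1, and the lowest value of a member was 0.2, for Pik3ca in the low-fat libraries.

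Pik3r1 had the largest negative difference. On the log2 scale it was -0.28 (95% interval -0.67 to 0.11) in low-fat and -0.31 (-0.70 to 0.08) in high-fat libraries. With the replicate number as a block the unadjusted limma p was 0.0178 and 0.0106, and the limma adjusted p was 1.0 and 0.997. WT mouse 1 had the highest libraries, and without its library of the fraction compared the values were -0.11 and -0.13.

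**Figure D2:**
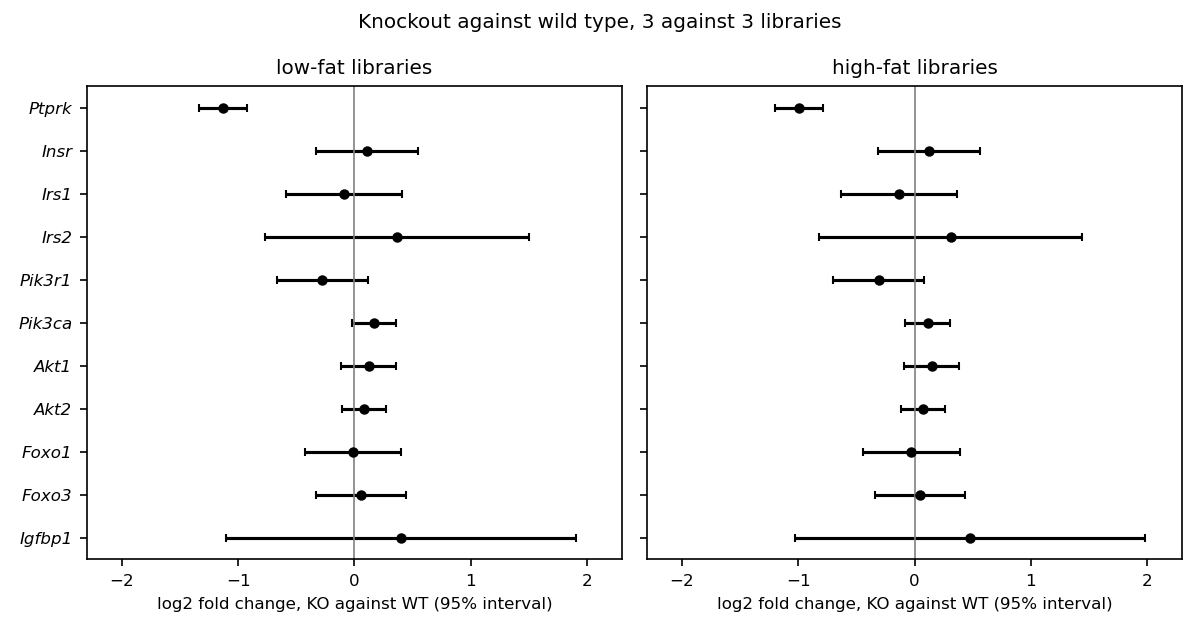
Log2 fold change of KO against WT in low-fat (left) and high-fat (right) libraries, 3 against 3, as points with 95% intervals from limma. The intervals use the spread of all 12 libraries, taken as independent. Ptprk lies near -1 in both panels, and the interval of each of the 10 signalling genes spans 0, widest for Igfbp1 and Irs2.

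The second comparison asked how the transcripts differed between hepatocytes of high and low lipid content of the same mouse. None of the 10 genes was called in WT (0% of all genes called, 1847 at an unadjusted limma p under 0.05), in KO (0.839% called) or in the mean of both genotypes (5.77% called, 956 genes). Without a block, the members at an unadjusted limma p under 0.05 numbered 0 in each of these 3 comparisons. With mouse as a block 0 members were called as well, where 1.7% of all genes were called in KO and 11% in the mean of both genotypes. The block left 0 members at an unadjusted limma p under 0.05 in WT and 0 in KO. In the mean of both genotypes it gave 2, Pik3ca and Akt2, beside 28.0% of all genes. All 10 genes were on average lower in high-fat libraries, with a median log2 difference of -0.07 beside -0.02 over all genes, but Insr, Irs1, Irs2 and Igfbp1 were higher on the deposited scaling alone. High-fat and low-fat libraries overlapped for all 10 genes in WT (17.4% of all genes did not overlap), and in KO for all but Pik3ca (13.4% of all genes did not overlap). These overlaps were taken after rescaling between libraries. On the deposited scale Pik3ca overlapped in KO as well, at 1301 to 1397 in low-fat and 1152 to 1373 in high-fat libraries.

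Pik3r1, Pik3ca and Foxo1 were lower in high-fat cells of 6 of 6 mice, by 0.04 to 0.15, 0.04 to 0.16 and 0.03 to 0.12 on the log2 scale. Of all genes 11.6% were lower in every mouse, and 21.6% had 1 direction in every mouse, as had these 3 of the 10 members. The exact sign-flip test over 6 mice gave p = 0.0312 for each, the smallest value it can give, and the limma adjusted p-values were 0.771, 0.457 and 0.87. On the deposited scaling alone they were lower in 4, 3 and 3 of 6 mice, so the direction rests on the rescaling between libraries, which moved the median of all genes from 0.03 to -0.02. Akt1, Akt2 and Foxo3 were lower in 5 of 6 mice, and on the deposited scaling alone in 2, 4 and 4. Of all genes 29% were lower in at least 5 mice. Akt2 had the largest mean difference, -0.13 on the log2 scale (limma adjusted p = 0.273, 95% interval -0.27 to 0.00, and limma adjusted p = 0.177 with mouse as a block).

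Insr, Irs1, Irs2 and Igfbp1 had no common direction over mice. The differences that follow are after rescaling between libraries. Igfbp1 differed between the fractions by a log2 value of 0.12, -0.13 and -0.11 in WT mice 1, 2 and 3 and by 0.74, -0.61 and -0.04 in KO mice 1, 2 and 3. The high-fat library of KO mouse 1 was thus 1.67-fold higher on that scale, and that of KO mouse 2 was lower. Irs2 differed by 0.32, -0.24 and -0.13 in WT and by 0.63, -0.57 and -0.28 in KO. Insr was between -0.23 and 0.24 and Irs1 between -0.14 and 0.16 in every mouse. In these bulk libraries fewer cells of a type and less RNA per cell cannot be told apart. Markers of Kupffer, stellate and endothelial cells were higher in the high-fat libraries by the sums given above. Of the 10 hepatocyte markers 8 were lower and 2 higher, with a median log2 difference of -0.15. Without a block the only one called was Cyp2e1, which was higher. Its low-fat and high-fat means were 36980 and 62660 reads per 20 M in WT and 37290 and 63450 in KO. With mouse as a block Hnf4a was called too, lower. The part of all these markers in the small shifts of the signalling genes was not tested.

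**Figure D3:**
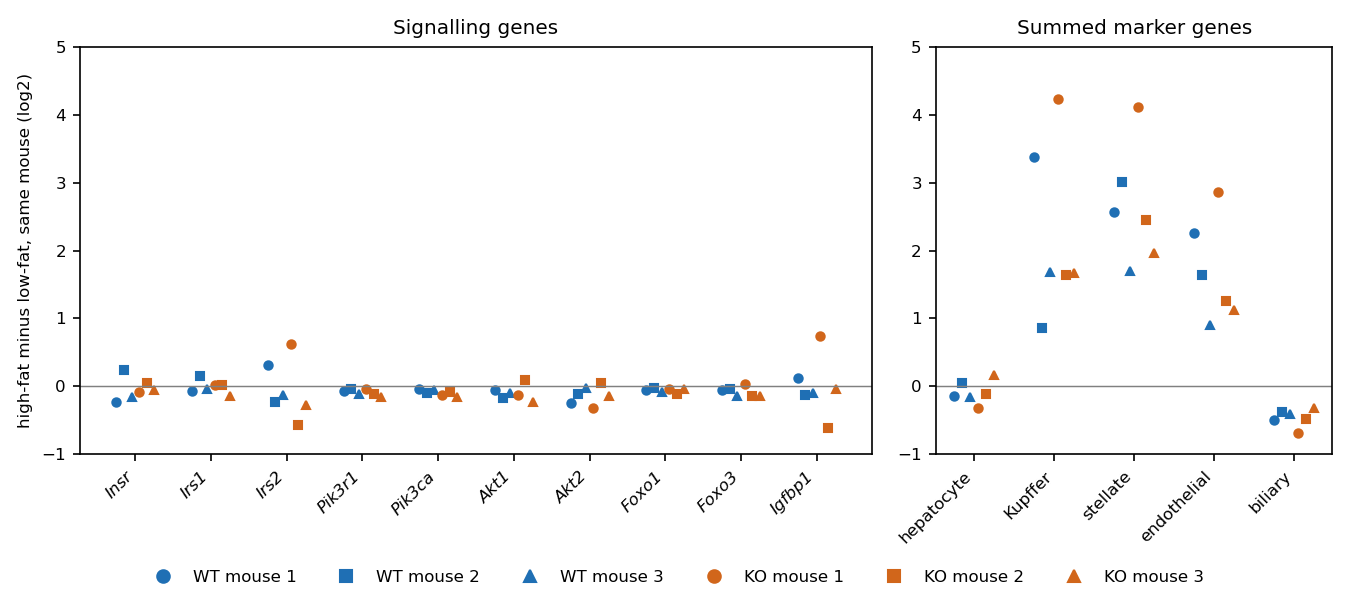
Log2 difference of high-fat minus low-fat level in each of the 6 mice, for the 10 genes (left) and for summed markers of 5 cell types (right), after the same rescaling between libraries and on the same axis. Differences of the signalling genes stay between -0.61 and 0.74, and the sums of Kupffer, stellate and endothelial markers are higher in every mouse.

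The third comparison asked whether the difference between fractions depended on genotype. None of the 10 genes was called in the interaction (limma, 0% of all genes called), with 0 members and 24 genes in all at an unadjusted p under 0.05. The median interaction of the members was -0.02 on the log2 scale beside 0.00 over all genes.

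Most of the variation of these genes lay between mice of 1 genotype. Sums of squares of the log2 values over 12 libraries were divided into genotype, mice within genotype, fraction, interaction and the rest. Mice within genotype held 97.5% for Foxo1, 92.6% for Irs1, 91.3% for Foxo3, 87.6% for Igfbp1, 83.0% for Irs2 and 82.8% for Insr. The adaptor, receptor, FOXO and target genes were thus mostly alike in both fractions of an animal and unlike between animals. Pik3r1 held 62.6%, Akt1 48.1%, Pik3ca 42.7% and Akt2 15.7%, the last 2 with narrow ranges. For these 4 genes genotype held 33.6%, 24.6%, 36.9% and 12.6%, beside a median of 3.98% over all genes, and none was called. For the other 6 genes genotype held 0.199% to 7.1%. Fraction held 17.5% for Pik3ca and 38.5% for Akt2, beside a median of 10.7%. The median share of mice was 82.9% in the members beside 47.6% over all genes tested, where 4 of 11 degrees of freedom, or 36.4%, belong to mice. In 7 of 10 members and in 46.2% of all genes mice held over 50%.

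In absolute terms the SD between mice within genotype was 0.97 on the log2 scale for Igfbp1, and 244 of the 16563 tested genes had a larger one. It was 0.71 for Irs2, with 825 genes larger. The value for Akt2 was 0.05, and 16094 tested genes varied more between mice. Igfbp1, a target, and Akt2, a kinase of the same pathway, thus stood near opposite ends of the tested genes.

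**Figure D4:**
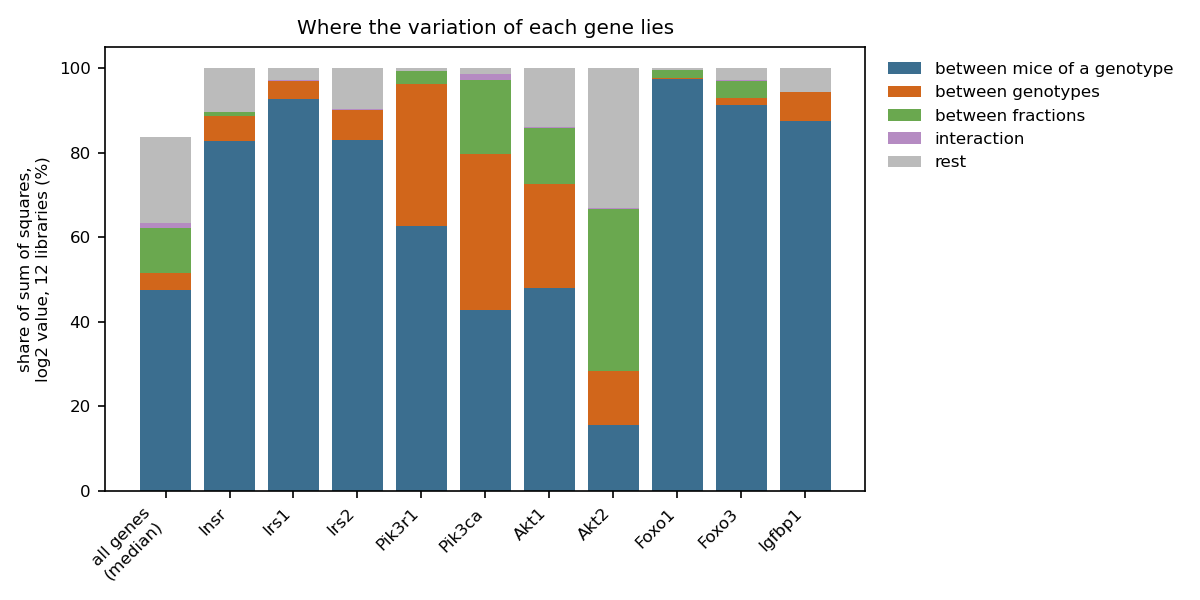
Share of the sum of squares of log2 values over 12 libraries, in percent, by source, for the median of all tested genes and for each of the 10 genes. The blue part, between mice of a genotype, is 82.8% or more in 6 genes and 15.7% in Akt2, and the medians of all genes are taken source by source and need not add to 100.

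Levels of the genes were next compared over the 6 mice, each the mean of both fractions, in 45 pairs of genes. No pair had a Benjamini-Hochberg adjusted p under 0.05, and 4 had an unadjusted p under 0.05. The smallest p was that of Irs1 with Foxo3, at Pearson's r of -0.985 (exact permutation p = 0.00139, the smallest that 720 permutations can give, adjusted 0.0625) and Spearman's rho of -1.0 (exact permutation p = 0.00278, adjusted 0.125). Low-fat libraries alone gave -0.939 and high-fat libraries -0.984, and r was -0.983 without the 2 mice farthest from the median of Irs1. Mice high in Irs1, such as KO mouse 1, were low in Foxo3, and KO mouse 2 was the reverse. Within-mouse differences between fractions of these genes had an r of 0.482 (exact permutation p = 0.338, adjusted 0.69) and a rho of 0.6 (exact permutation p = 0.242, adjusted 0.704).

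Pik3ca and Akt2 had mouse means in nearly the same order over a narrow range, at r = 0.986 (exact permutation p = 0.00556, adjusted 0.125) and rho = 0.829 (exact permutation p = 0.0583, adjusted 0.525). In the low-fat libraries alone this was 0.557 and in the high-fat libraries 0.838, and without the 2 farthest mice 0.881. Insr and Pik3r1 had r = -0.836 (exact permutation p = 0.0417, adjusted 0.469) and rho = -0.829 (exact permutation p = 0.0583, adjusted 0.525). Without the 2 mice farthest in Insr it was -0.07, so that relation rested on those mice.

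Irs2 and Igfbp1 were compared between mice and between the fractions of a mouse. Over mouse means r was 0.823 (exact permutation p = 0.0361, adjusted 0.469) and rho 0.886 (exact permutation p = 0.0333, adjusted 0.525), with 0.793 in low-fat and 0.87 in high-fat libraries and 0.675 without the 2 farthest mice. For the within-mouse differences r was 0.941 (exact permutation p = 0.00694, adjusted 0.156 over 45 pairs) and rho 0.829 (exact permutation p = 0.0583, adjusted 0.704), and 0.908 without the 2 farthest mice. Of the 45 pairs of within-mouse differences 5 had an unadjusted exact permutation p under 0.05 and 0 an adjusted one. The smallest p was that of Akt2 with Igfbp1, at r = -0.917 (exact permutation p = 0.00417, adjusted 0.156) and rho = -0.943 (exact permutation p = 0.0167, adjusted 0.704), with -0.864 without the 2 farthest mice. Irs2 with Akt2 had r = -0.903 (exact permutation p = 0.0153, adjusted 0.229) and rho = -0.771 (exact permutation p = 0.103, adjusted 0.704), and -0.537 without the 2 farthest mice. The other two pairs were Pik3r1 with Foxo3 (r = 0.925) and Akt1 with Foxo1 (r = -0.857). The fraction with more Igfbp1 had more Irs2 in 6 of 6 mice (5 on the deposited scaling alone, where WT mouse 3 differed), and 3.44% of the other tested genes (569 of 16562) shared the signs of Igfbp1 in every mouse. Neither relation of Irs2 with Igfbp1 passed the correction. Irs1, whose window also holds the insulin response core, had an r with Igfbp1 of -0.432 over mouse means (exact permutation p = 0.4, adjusted 0.839, rho -0.2, exact permutation p = 0.714) and of -0.08 over within-mouse differences (exact permutation p = 0.897, adjusted 0.942, rho -0.543, exact permutation p = 0.297).

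Summed immediate early genes (Fos, Jun, Egr1 and 4 others), which rise during cell isolation, differed between fractions, after the same rescaling, by a log2 value of 0.64, -0.21 and -0.04 in WT mice 1, 2 and 3 and by 0.78, -0.59 and -0.18 in KO mice 1, 2 and 3. They had the sign of Igfbp1 and Irs2 in 6 of 6 mice. Summed lymphocyte and neutrophil markers had that sign in 6 of 6 mice as well. They differed by 2.015, -2.033 and -0.112 in WT and by 0.986, -2.9 and -0.345 in KO. These marker sums were low, at 6 to 111 on the deposited scale. The summed nuclear-retained RNAs differed by 1.23, 0.04 and 0.21 in WT and by 1.65, -1.98 and 0.17 in KO, with the sign of Igfbp1 in 3 of 6 mice. Their largest differences were in KO mice 1 and 2, as were those of Igfbp1 and Irs2. The part of any of these sums in the shared movement of Igfbp1 and Irs2 was not tested.

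**Figure D5:**
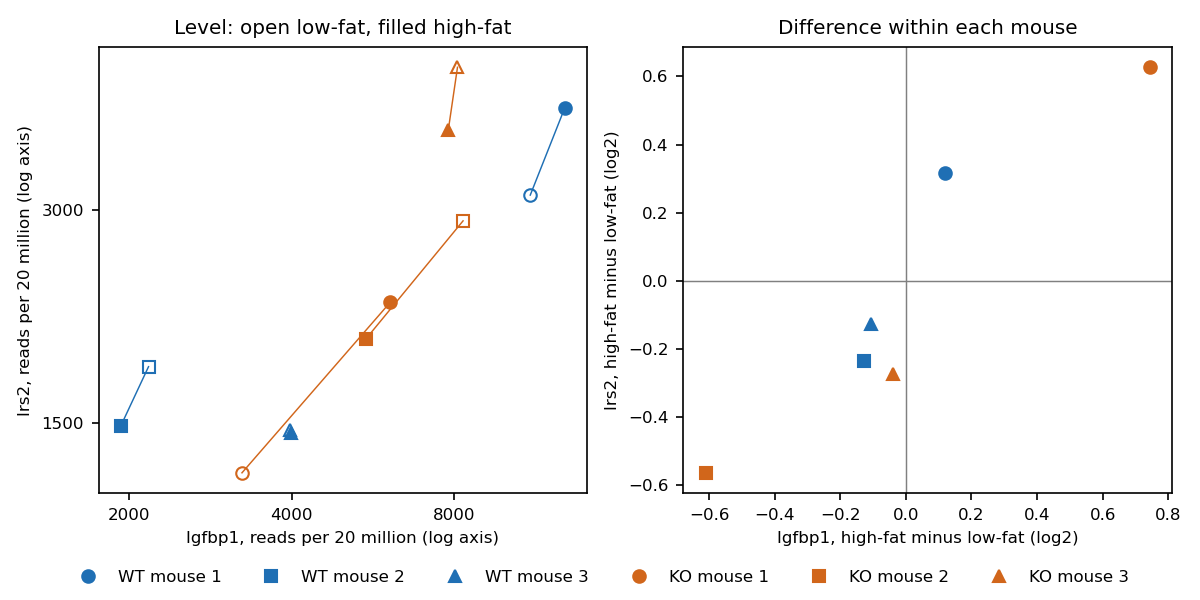
Left, level of Irs2 against Igfbp1 in each library, both in reads per 20 M on log axes, with open symbols for low-fat, filled for high-fat and a line for each mouse. Right, the log2 difference between the fractions for each of the 6 mice, after rescaling between libraries, where all points lie in the quadrants in which both genes have the same sign (5 of 6 on the deposited scaling alone).

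The tested genes whose log2 level was most like that of 3 members over the 12 libraries were listed as a description, with no test, and the libraries of a mouse are not independent. For Igfbp1 they included Trib1 and Bach1, at Pearson's r of 0.911 and 0.895. For Irs2 they were 9530052E02Rik at 0.969, whose exons overlap it, Tns3 at 0.907 and Gm42615 at 0.873. For Insr they were Gm26540, Dennd5b and Rabgap1, at 0.973, 0.966 and 0.963.

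Other transcripts that FOXO1 raises had weak, moderate or negative correlations with Igfbp1. Over the 12 libraries, as a description, the r with Igfbp1 was 0.626 for Ppargc1a, a coactivator of gluconeogenic genes, 0.589 for Pck1, a gluconeogenic enzyme, and 0.133 for G6pc, the catalytic subunit of glucose-6-phosphatase. It was -0.774 for Bcl6, a transcriptional repressor, whose highest library was 12.1-fold above its lowest. Of the 8 such genes tested none was called in any comparison by limma without a block. Bcl6 had the smallest unadjusted limma p of them in KO against WT, with log2 fold changes of -1.18 and -1.16 in low-fat and high-fat libraries (limma adjusted p = 1.0 for each), and Pck1 followed at 0.26 and 0.23. Between fractions 7 of the 8 genes were lower in high-fat libraries and 1 was higher, under each scaling. Their median log2 difference was -0.15, beside -0.02 over all genes. On the deposited scaling alone it was -0.09, beside 0.03. Pdk4, an inhibitory kinase of pyruvate dehydrogenase and the gene that was higher, and Ppargc1a had the smallest p. Their mean log2 differences were 0.73 (limma adjusted p = 0.126) and -0.39 (limma adjusted p = 0.188). With mouse as a block these became calls, at limma adjusted p-values of 0.0438 and 0.0121, where 11% of all genes were called.

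None of the 6 genes listed as raised by insulin in liver, among them Srebf1, Fasn, Pnpla3, Acaca and Scd1, was called in any comparison by limma without a block. All 6 were lower in KO in both fractions under each of the 3 scalings, with a median log2 fold change of -0.24 in low-fat and -0.31 in high-fat libraries, beside -0.004 and -0.014 over all genes. Acaca, which makes malonyl-CoA for fatty acid synthesis, had the smallest p, at -0.34 and -0.35 (limma adjusted p = 1.0 for each). Between fractions the median was -0.40, and Acaca (-0.47) and Srebf1 (-0.32), the gene of the lipogenic transcription factor SREBP1, had limma adjusted p-values of 0.243 and 0.481. With mouse as a block Acaca, Srebf1 and Pnpla3 were called lower in high-fat libraries, at limma adjusted p-values of 0.0279 and 0.0261 for the first pair.

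Of 45 other genes of the pathway 43 were tested, and none was called in KO against WT, between fractions in 1 genotype, or in the interaction. In KO against WT 25 were higher and 18 lower in low-fat libraries and 27 and 16 in high-fat libraries. The smallest unadjusted p in low-fat libraries belonged to Tsc1, a brake on mTORC1, at a log2 fold change of 0.29 (limma adjusted p = 1.0). In high-fat libraries it belonged to Pik3r3, another regulatory subunit, at -0.69 (limma adjusted p = 1.0).

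In the mean of both genotypes 3 of the 43 were called between fractions, 2 higher and 1 lower in high-fat libraries, beside 5.77% of all genes. Igf1r, the receptor for insulin-like growth factor 1, rose by a log2 value of 1.5 (SE 0.34, limma adjusted p = 0.0258), with 7 to 45 reads per 20 M in low-fat and 54 to 112 in high-fat libraries. It was higher in 6 of 6 mice. The Kupffer, stellate and endothelial marker sums were also higher in 6 of 6 mice, with 8 of 9, 9 of 9 and 9 of 9 markers called, and their part in this rise was not tested. Ceacam1, which promotes insulin clearance in hepatocytes, fell by 0.27 on the log2 scale (SE 0.06, limma adjusted p = 0.0152) and was lower in 6 of 6 mice, at 4054 to 4489 in low-fat and 3564 to 3916 in high-fat libraries. Without WT low-fat replicate 1 the limma adjusted p of Ceacam1 was 0.0512, and that of Igf1r passed 0.05 when any of 6 libraries was left out (0.0512 to 0.0651). Without the high-fat libraries of both mice numbered 1, where Kupffer markers were highest, 1 of the 43 genes was called. Neither Igf1r nor Ceacam1 was. That fit, chosen after seeing the data, had fewer high-fat libraries, and the reason for the lost calls was not tested.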

How the data were processed

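The deposited values are a score: gaps and column sums show that the authors brought every library to a total of about 20 M and rounded upward, so no count model was used and the unit is reads per 20 M. The submitters' processing notes name mm9. The aligner, counter, annotation and strand setting are not given in the sources used here. Gene positions, exon lengths and promoters come from GENCODE M21 and RefSeq on GRCm38, matched by Ensembl identifier or symbol, and no position was converted.

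The 16563 genes that reached 10 in 3 or more libraries were rescaled by the trimmed mean of M values (TMM), computed on them, and tested as log2(value + 2), a scale on which low genes change less. All 12 libraries entered 1 fit of limma 3.58.1 (R 4.3.3), with 4 group means and a variance trend. P-values are two-sided with Benjamini-Hochberg adjustment over all genes, and a call is an adjusted p under 0.05. Exact permutations and sign flips were made over mice. The fit was tested on simulated data.

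The low-fat and high-fat library of a number carry the same mouse name in the labels, and their deviations from group means correlated (mean r 0.516 for WT, 0.165 for KO), so a mouse block was a second fit. Same-numbered WT and KO mice are different animals. Their deviations correlated at 0.251 to 0.396 in each low-fat pair and at -0.171 to 0.49 in the high-fat pairs, so the number was used as a block in a second fit only.

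Named genes are Ptprk, the 10 members, called genes of each list or else the 2 with the smallest p, and the 3 genes most like Igfbp1, Irs2 and Insr. Some genes that this rule takes are not reported here. The members and lists were chosen with earlier results of these data known. Alternatives covered the block, an estimated same-mouse correlation, scaling, pseudocount, filter, the libraries in the fit and leaving out each library.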

Additional observations from a re-analysis of the deposited data

How the results depend on the processing

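No member was called in any of the 6 comparisons under any alternative, and the lowest limma adjusted p of a member over the alternatives was 0.121, for Akt2 between fractions. Blocking on mouse raised the number of other pathway genes called between fractions from 3 to 8, an estimated same-mouse correlation of 0.379 gave 7, leaving out 1 library gave 2 to 3, and leaving out the high-fat libraries of both mice numbered 1, chosen after seeing the data, gave 1. The replicate block changed no call of a member. Of the 43 other pathway genes 15 were higher and 28 lower between fractions, but 20 and 23 on the deposited scaling alone. Genes called between fractions numbered 956 in all without and 1825 with the block, and 139 and 282 in KO.

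Some signs of members turned, and the cause was not tested. On the deposited scaling alone the log2 difference between fractions was 0.013 for Insr, 0.047 for Irs1, 0.012 for Irs2 and 0.051 for Igfbp1, and with median-of-ratios scaling it was 0.00 for Irs1 and 0.005 for Igfbp1. Leaving out 1 library, the KO against WT log2 fold change in low-fat libraries ran from -0.024 to 0.247 for Insr, -0.29 to 0.14 for Irs1, -0.074 to 0.861 for Irs2, -0.18 to 0.13 for Foxo1, -0.10 to 0.24 for Foxo3 and -0.17 to 1.04 for Igfbp1. In high-fat libraries it ran from -0.10 to 0.26 for Insr, -0.35 to 0.06 for Irs1, -0.02 to 0.79 for Irs2, -0.18 to 0.11 for Foxo1, -0.081 to 0.184 for Foxo3 and -0.15 to 1.19 for Igfbp1. Between fractions it ran from -0.10 to 0.07 for Insr, -0.12 to 0.091 for Irs1, -0.29 to 0.18 for Irs2, -0.142 to 0.022 for Foxo1 and -0.36 to 0.32 for Igfbp1. Ptprk lost its call in the high-fat libraries when only the 6 libraries compared were fitted (limma adjusted p = 0.404) or without WT high-fat replicate 3 or any 1 KO high-fat replicate (0.0531 to 0.0705). With 3 mice a group, the intervals of Igfbp1 and Irs2 still include a doubling.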
